A study of Mus musculus with 6 samples.

Results

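Astrocytes are the glial cells that clear glutamate, GABA and potassium released by neurons, feed neurons with metabolites and surround the blood vessels of the brain. They are joined to each other by gap junctions, and in injury or inflammation they become reactive, a state classically marked by more of the filament proteins GFAP and vimentin. In the resting mouse cortex most astrocytes contain little GFAP, and transporters, connexins and metabolic enzymes are the more general markers. The genes described here are 31 astrocyte identity and reactivity genes, chosen by their symbols, out of 45777 genes in the deposited count table. All 31 were found in the table. They were divided by role into 13 transport and metabolism genes, 4 genes of coupling and cell contact, 6 receptors and regulators, and 8 reactivity and secreted-protein genes.

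RNA was taken from the anterior cingulate cortex, on the midline of the frontal brain, of inbred BALB/c mice. There were 3 stress libraries, from mice exposed over 5 days to social defeat, in which an aggressive mouse attacks and dominates the tested one, and 3 non-stress libraries, from mice without defeat. No genetic alteration is stated, and age and sex are not given in the labels. Nor do the labels tie each library to its own animal, so the p-values reflect the spread among these 6 libraries alone, and that spread may be technical. These are whole pieces of tissue, so fewer astrocytes and less RNA per astrocyte cannot be told apart.

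Library totals lay between 41623899 and 44882821 counts in stress and between 41976809 and 47212982 counts in non-stress, and the 31 genes took 1.04% to 1.08% of the counts in stress and 1.02% to 1.06% in non-stress. The non-stress libraries were not alike. On principal component 1 of all genes tested, the stress libraries lay between -20.4 and -14.9, while non-stress 1 lay at -11.7, non-stress 2 at 37.4 and non-stress 3 at 27.4. Markers of the other cells of the tissue were present in every library. The summed level of 8 neuron markers was 10430 to 10561 CPM (read counts scaled to the TMM-adjusted library size) in stress and 10576 to 10717 CPM in non-stress, so that the groups did not overlap. Most of this sum was Snap25, which overlapped between the groups (6369 to 6478 CPM in stress and 6378 to 6685 CPM in non-stress). Singly, 4 of the 8 had a log2 fold change (stress over non-stress) above 0 and 4 below 0, with a median of -0.0097. Values did not overlap in 3 of the 8, 1 higher and 2 lower in stress (37.5%, against 17.9% of all genes tested). The summed level of 8 oligodendrocyte markers was 6700 to 7258 CPM in stress and 6104 to 7599 CPM in non-stress, and that of 8 microglia markers was 495 to 526 CPM in stress and 512 to 515 CPM in non-stress. No gene of these 3 marker lists was at 0, and their part in the results below was not tested.

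The level of the astrocyte genes spanned a wide range, and the order of the non-stress means is given per length, as CPM per kilobase of annotated exon. Apoe, the lipid carrier that astrocytes secrete, stood highest at 1331 ± 63.9 CPM per kilobase in stress and 1296 ± 14.7 in non-stress (SD, n = 3 each). It was followed by Sparcl1, a secreted protein that promotes synapse formation (697 ± 9.06 in stress and 701 ± 28.7 in non-stress), by Clu, the secreted chaperone clusterin (610 ± 33.2 in stress and 596 ± 22.96 in non-stress), and by the glycolytic enzyme gene Aldoc (468 ± 6.46 in stress and 473 ± 31.004 in non-stress). In the non-stress libraries each of these genes lay above the next without overlap. From there the order often could not be resolved: Htra1 overlapped Ntsr2, Glul overlapped Mlc1, and Slc39a12, Aldh1l1, Fgfr3 and Serpina3n each overlapped the next gene in the order, down to Sox9. Gfap stood near the bottom, at 3.29 ± 0.248 CPM per kilobase in stress and 3.00 ± 3.06 in non-stress. Of the 31, Slc14a1, a urea transporter gene, had the lowest mean, at 2.45 ± 0.178 in stress and 2.53 ± 0.270 in non-stress, and in the non-stress libraries it overlapped Gfap.

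**Figure D1:**
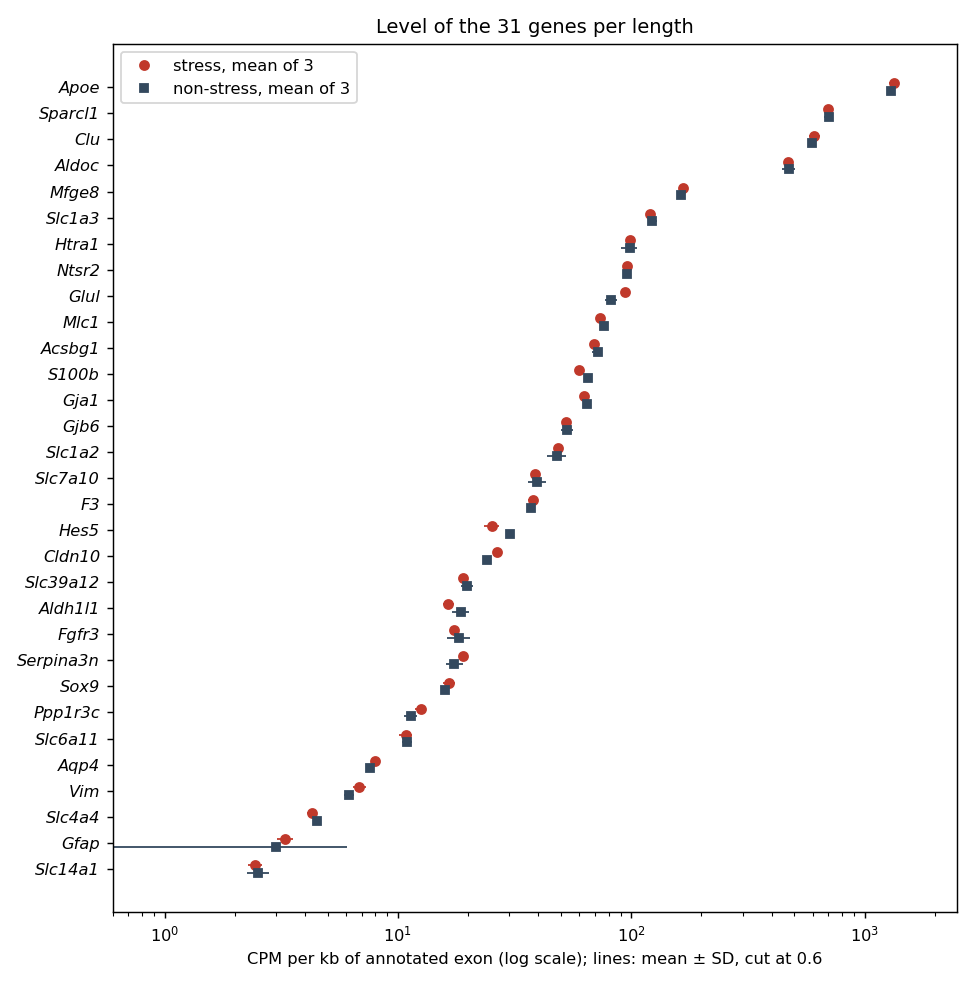
Mean level of each of the 31 genes in CPM per kilobase of annotated exon on a log axis, for stress (red circles) and non-stress (blue squares), with lines for the mean ± SD of 3 libraries. Apoe stood highest and Slc14a1 lowest, and Gfap had the widest line, in non-stress.

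The comparison of stress with non-stress addresses how repeated defeat alters expression in this region. No astrocyte gene of the 31 had an adjusted p under 0.05 (edgeR's quasi-likelihood test, Benjamini-Hochberg adjustment over the 19227 genes tested), a level that 0.00520% of those genes reached. At an unadjusted p under 0.05 there were 5 astrocyte genes, 16.1% of the 31, against 12.1% of all genes tested. Higher in stress were 2 of them, Glul and Cldn10 (background 5.80%), and lower were 3, Hes5, Aldh1l1 and S100b (background 6.27%). In 7 astrocyte genes, or 22.6%, the stress and non-stress values did not overlap, against 17.9% of all genes tested. Stress was above non-stress in 3 of these, Aqp4, Glul and Cldn10 (background 8.70%), and below in 4, Slc4a4, Aldh1l1, Hes5 and S100b (background 9.20%). All these counts were near the background. The median log2 fold change of the 31 genes was -0.0094 (stress over non-stress), against -0.00053 over all genes tested, with 15 above 0 and 16 below 0. For 29 of the 31 genes the 95% interval of the fold change lay within 1.3-fold in either direction, and the others were Gfap and Hes5. The 1.3-fold limit was set after the values were seen. Close to it were the upper end for Vim (1.26-fold) and the lower end for Aldh1l1 (0.798-fold). A gene-wise test that misses its threshold does not show that levels were equal, and these intervals give the sizes that remain possible.

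**Figure D2:**
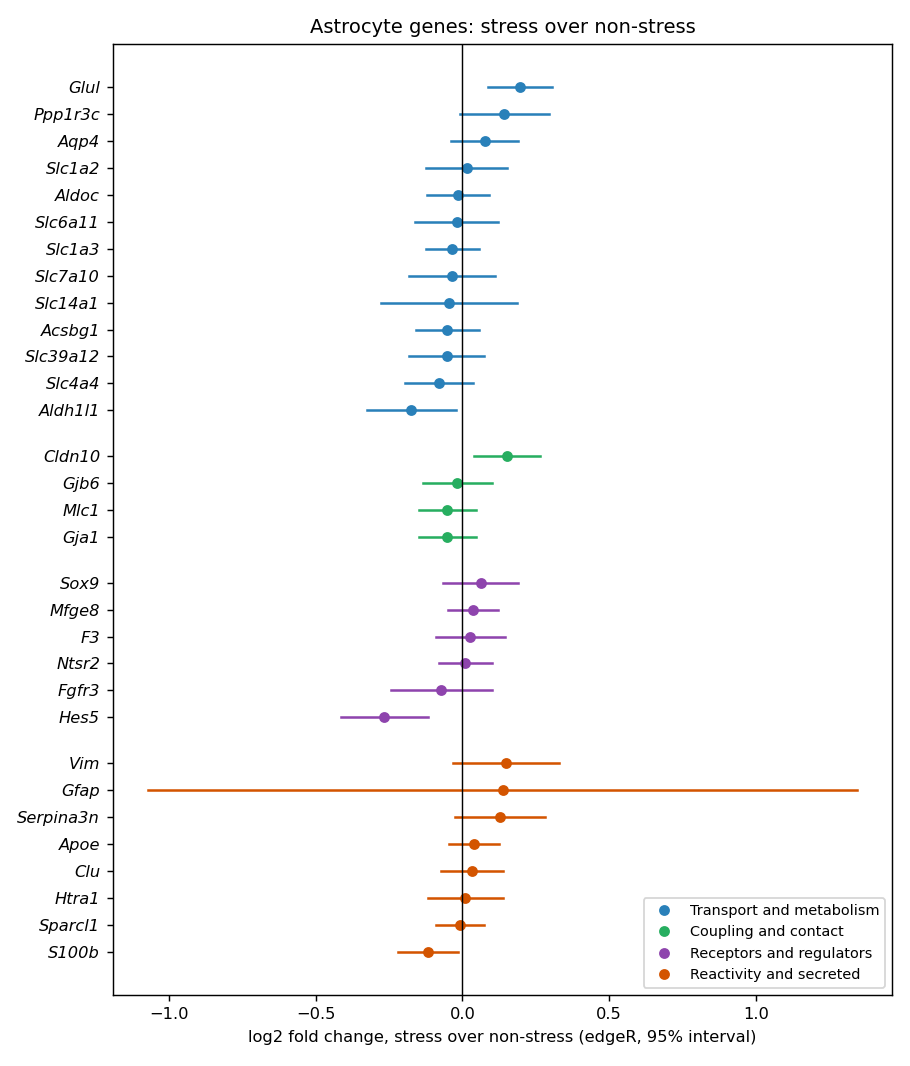
Log2 fold change of each gene, stress over non-stress, with its 95% interval from edgeR, coloured by role. 30 of the intervals are short and lie close to 0, while that of Gfap runs from -1.07 to 1.34.

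Transport and metabolism genes carry out the uptake and recycling work of astrocytes. Of the 13, 4 had a log2 fold change above 0 and 9 below 0, with a median of -0.035, and none passed the test. Glul, which encodes glutamine synthetase, the enzyme that turns glutamate and ammonia into glutamine (chromosome 1, 153899929 to 153909723, GRCm38), had the smallest p of these. It stood at 268, 255 and 263 CPM in stress libraries 1, 2 and 3, and at 226, 217 and 243 CPM in non-stress libraries 1, 2 and 3. The groups did not overlap, and the closest pair was stress 2 and non-stress 3. The log2 fold change was 0.20 (SE 0.049, 95% interval 0.085 to 0.31), with an unadjusted p of 0.00282 and an adjusted p of 0.344 in edgeR. DESeq2 called it, as the only one of the 31 (adjusted p = 0.0481, where DESeq2 called 1.05% of 12144 genes). With each library left out in turn the log2 fold change of Glul stayed between 0.16 and 0.24. Overlaps with exons of Mir8114 (same strand) and Teddm2 (opposite strand) came to 160 bases, against 2792 exon bases of Glul.

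Aldh1l1, a folate enzyme gene widely used as a marker of all astrocytes (chromosome 6, 90550768 to 90599171), stood lower in stress. Its levels were 72.6, 65.0 and 68.8 CPM in stress libraries 1 to 3 and 74.4, 84.9 and 73.4 CPM in non-stress libraries 1 to 3. The groups did not overlap, but stress 1 and non-stress 3 were close, and non-stress 2 was the highest library. The log2 fold change was -0.17 (SE 0.068, unadjusted p = 0.0293, adjusted p = 0.386 in edgeR), and it was -0.10 when non-stress 2 was left out and -0.090 when a trend on GC content and length was removed. Exons of the opposite-strand gene Gm15756 cover 438 of the 4175 exon bases of Aldh1l1, and reads of such pairs cannot be told apart without strand. Ppp1r3c, which targets a phosphatase to glycogen, had 36.1, 32.1 and 34.1 CPM in stress and 29.1, 30.6 and 33.0 CPM in non-stress. The groups overlapped in this gene, with stress 2 below non-stress 3, and the log2 fold change was 0.14 (adjusted p = 0.438, edgeR).

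The glutamate transporters that account for most uptake in the cortex showed little difference. Slc1a2 (GLT-1) had 582, 573 and 606 CPM in stress and 617, 521 and 605 CPM in non-stress, with stress inside the range of non-stress. Its log2 fold change was 0.014, with a 95% interval of -0.12 to 0.15. Slc1a3 (GLAST) had 532, 523 and 534 CPM in stress and 528, 570 and 532 CPM in non-stress, a log2 fold change of -0.035 with an interval of -0.13 to 0.055. The interval for each thus lay within 1.3-fold in either direction. Per length, Slc1a3 (120 ± 1.28 CPM per kilobase in stress and 123 ± 5.26 in non-stress) stood above Slc1a2 (48.5 ± 1.39 in stress and 48.1 ± 4.34 in non-stress). That order depends on the annotated exon length used, 4404 bases for Slc1a3 and 12092 for Slc1a2. In CPM the mean of Slc1a2 was the higher, at 587 against 530 in stress and 581 against 543 in non-stress, though not in non-stress 2. The GABA transporter gene Slc6a11 (GAT-3) and Slc7a10, which carries glycine and serine, had log2 fold changes of -0.020 and -0.036.

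Aqp4, the water channel of astrocyte end-feet on blood vessels, had 47.6, 45.5 and 48.1 CPM in stress and 45.4, 43.1 and 45.4 CPM in non-stress. The groups did not overlap, though stress 2 was barely above non-stress 1, and the log2 fold change was 0.076 (adjusted p = 0.560, edgeR). Slc4a4, the sodium bicarbonate cotransporter, also did not overlap, in the other direction, with 43.3, 42.4 and 45.7 CPM in stress and 45.8, 45.9 and 47.1 CPM in non-stress. Its log2 fold change was -0.079 (adjusted p = 0.545, edgeR). The zinc transporter gene Slc39a12 (-0.054), the acyl-CoA synthetase gene Acsbg1 (-0.052), Slc14a1 (-0.046) and Aldoc (-0.015) overlapped between the groups, and their adjusted p-values in edgeR were 0.687 to 0.918.

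Genes of coupling and contact encode the proteins that link astrocytes to each other. 1 of the 4 had a log2 fold change above 0 and 3 below 0, the median was -0.034, and none passed the test. The connexin genes Gja1 (connexin 43) and Gjb6 (connexin 30) form the gap junctions of the astrocyte network. Gja1 had 210, 208 and 215 CPM in stress and 209, 222 and 226 CPM in non-stress, with non-stress 1 between the stress values. Its log2 fold change was -0.052, with a 95% interval of -0.15 to 0.045. Gjb6 had 110, 107 and 114 CPM in stress and 105, 117 and 114 CPM in non-stress, a log2 fold change of -0.018 with an interval of -0.13 to 0.100. In both genes the groups overlapped, and non-stress 1 was the lowest non-stress library.

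Mlc1, a membrane protein of astrocyte contacts at vessels and the brain surface, had 209, 201 and 209 CPM in stress and 206, 223 and 213 CPM in non-stress (log2 fold change -0.051, adjusted p = 0.656 in edgeR). Cldn10, a claudin gene (chromosome 14, 118787871 to 118874525), stood apart from these. It had 72.4, 68.4 and 66.7 CPM in stress and 63.5, 60.5 and 62.6 CPM in non-stress, without overlap. The log2 fold change was 0.15 (SE 0.050, 95% interval 0.040 to 0.27), with an unadjusted p of 0.0130 and an adjusted p of 0.351 in edgeR. It stayed between 0.12 and 0.18 with each library left out.

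**Figure D3:**
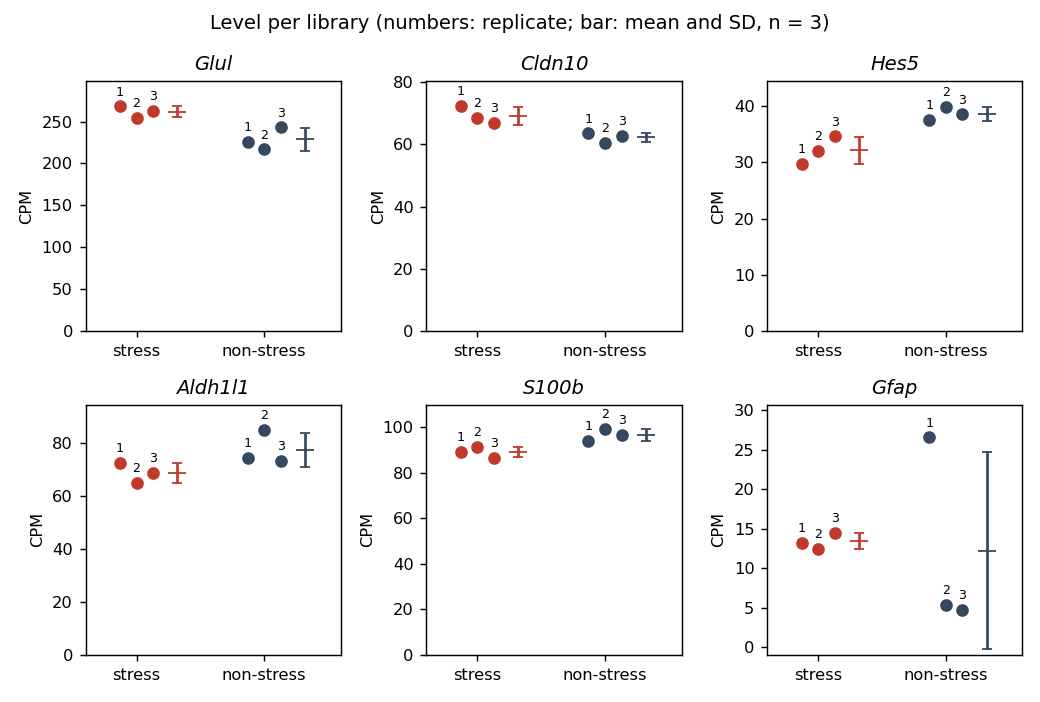
CPM in each library (points, numbered by replicate) of the 5 genes with an unadjusted p under 0.05 and of Gfap, with the mean and SD of 3 libraries beside each group. In Glul and Cldn10 the stress points lie above the non-stress points, in Hes5, Aldh1l1 and S100b below them, and in Gfap between non-stress 1 at 26.6 CPM and non-stress 2 and 3 at 5.34 and 4.73 CPM.

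Receptors and regulators include the factors that keep astrocyte identity. Of the 6, 4 had a log2 fold change above 0 and 2 below 0, with a median of 0.018, and none passed the test. Hes5, a transcriptional repressor switched on by Notch signalling (chromosome 4, 154960626 to 154962372), had the smallest p of all 31 genes. Its levels were 29.7, 32.01 and 34.6 CPM in stress libraries 1 to 3 and 37.5, 39.9 and 38.5 CPM in non-stress libraries 1 to 3. All stress values were below all non-stress values, and stress 3 was the nearest to non-stress. The log2 fold change was -0.27 (SE 0.066, 95% interval -0.41 to -0.12), with an unadjusted p of 0.00261 and an adjusted p of 0.344 in edgeR, or 0.0568 in DESeq2. Left-out libraries moved it between -0.32 and -0.21. Exons of the opposite-strand gene Gm20421 cover 433 of the 1273 exon bases of Hes5, so part of its counts could come from that gene.

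The upstream sequence of Hes5 is shown because Notch acts on this gene through the DNA-binding protein RBPJ, whose recognition letters GTGGGAA were searched on both strands of the 250 bases before the start (RefSeq, GRCm38.p6). There were 2 matches, in capitals below with the bases around them, in windows printed from the plus strand at chr4:154960685-154960714 and chr4:154960828-154960857. The far match reads TTCCCAC in its window, so its GTGGGAA lies on the minus strand, and the near one lies on the plus strand. The matches begin 226 and 83 bases before the start that the promoter table uses, which lies inside the gene span given above. The nearer match also lies in an annotated exon.
Hes5 site far: agggcgagcgcgTTCCCACagcccggacat
Hes5 site near: tggccgccgagtGTGGGAAcggccgcggcg
The same letters occur in 5.42% of 32851 such windows, and in 3 of the 26 astrocyte genes that the promoter table holds (Hes5, Aldoc and Mfge8). Aldoc and Mfge8 had log2 fold changes of -0.015 and 0.035. A match is a description of the letters and does not show binding.

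Sox9, the transcription factor that specifies and maintains astrocytes, had 63.9, 71.2 and 70.4 CPM in stress and 62.6, 67.6 and 66.7 CPM in non-stress, and the groups overlapped. Its log2 fold change was 0.062 (adjusted p = 0.689, edgeR). Fgfr3, a fibroblast growth factor receptor gene, had 73.9, 79.7 and 77.1 CPM in stress and 77.9, 91.1 and 73.3 CPM in non-stress, where non-stress 2 alone stood clearly above the others. The neurotensin receptor gene Ntsr2, the tissue factor gene F3 and Mfge8, which tags particles for phagocytosis, had log2 fold changes of 0.0091, 0.027 and 0.035, and each overlapped between the groups.

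Reactivity and secreted-protein genes are those that reactive astrocytes raise or release. Of the 8, 6 had a log2 fold change above 0 and 2 below 0, with a median of 0.036, and none passed the test. S100b, a calcium-binding protein gene (chromosome 10, 76253836 to 76261319), had the smallest p. It stood at 89.2, 91.3 and 86.6 CPM in stress and at 93.8, 99.1 and 96.7 CPM in non-stress, without overlap. The log2 fold change was -0.12 (SE 0.045, unadjusted p = 0.0283, adjusted p = 0.386 in edgeR). Serpina3n, a secreted protease inhibitor that is prominent in reactive astrocytes, had 40.03, 38.0 and 40.2 CPM in stress and 32.9, 36.4 and 38.9 CPM in non-stress. Stress 2 lay just below non-stress 3, and the log2 fold change was 0.13 (95% interval -0.024 to 0.28, adjusted p = 0.473 in edgeR). Serpina3n belongs to a cluster of closely similar genes, which can share reads.

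Vim, which encodes vimentin, had 14.1, 14.8 and 16.1 CPM in stress and 14.3, 12.96 and 13.4 CPM in non-stress. Non-stress 1 overlapped the stress values, and the log2 fold change was 0.15 (95% interval -0.031 to 0.33, adjusted p = 0.479 in edgeR). Vimentin is also made by endothelial and mural cells. The summed level of 8 endothelial markers was 209 to 215 CPM in stress and 209 to 223 CPM in non-stress. That of 6 mural markers was 144 to 152 CPM in stress and 151 to 154 CPM in non-stress. Of these 6, 2 had a log2 fold change above 0 and 4 below 0. The part of endothelial and mural cells in the result was not tested. The secreted proteins had small differences: Apoe, Clu, Htra1 (a secreted protease) and Sparcl1 had log2 fold changes of 0.039, 0.033, 0.010 and -0.0094, each with a 95% interval within 1.3-fold in either direction.

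Gfap was unlike the other 30 genes (chromosome 11, 102887336 to 102897200, minus strand). It had 13.2, 12.5 and 14.5 CPM in stress libraries 1 to 3, from 549, 544 and 650 counts. In non-stress libraries 1, 2 and 3 it had 26.6, 5.34 and 4.73 CPM, from 1148, 251 and 199 counts. The stress libraries lay close together and between the non-stress libraries, of which 1 was far above and the others far below. The highest non-stress value was 5.62 times the lowest, whereas in the other 30 genes the highest non-stress value was at most 1.24 times the lowest (Fgfr3). Among the stress libraries the highest Gfap value was 1.16 times the lowest. The SD of log2 CPM among the non-stress libraries placed Gfap at percentile 99.1 of all genes tested, while the other 30 genes lay between percentiles 1.84 (Apoe) and 59.6 (Fgfr3).

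With all libraries, the log2 fold change of Gfap was 0.14 with an SE of 0.54 and a 95% interval from -1.07 to 1.34 (adjusted p = 0.937, edgeR). The data could therefore not resolve even a 2-fold difference in either direction, and 1 library decided the value. It also depended on the method: with all 6 libraries it was 0.62 in limma-voom (adjusted p = 0.610). With replicate number as a block in edgeR it was 0.55 (adjusted p = 0.657). Without non-stress 1 the log2 fold change was 1.41 (SE 0.11, 2.66-fold higher in stress, adjusted p = 7.67e-05 in edgeR), in a comparison where 3.85% of 19616 genes passed (2.94% higher in stress) and Gfap was the only one of the 31 that did. Without non-stress 2 it was -0.22 (adjusted p = 0.928) and without non-stress 3 it was -0.24 (adjusted p = 0.877). Leaving out a stress library kept it between 0.077 and 0.19.

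**Figure D4:**
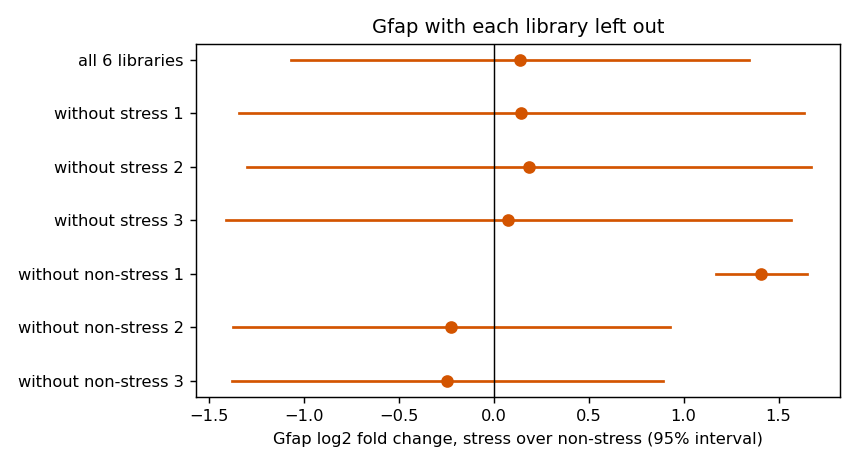
Log2 fold change of Gfap, stress over non-stress, with its 95% interval from edgeR, for all 6 libraries and with each library left out. The value is 1.41 without non-stress 1, and below 0 without non-stress 2 or non-stress 3.

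Markers of other cells also differed among the non-stress libraries. The summed level of 7 meningeal fibroblast markers, cells of the brain surface where GFAP-rich astrocyte end-feet lie, was 12.6 to 13.9 CPM in stress and 14.9, 9.04 and 9.70 CPM in non-stress 1, 2 and 3. In this sum, as for Gfap, non-stress 1 was above and non-stress 2 and 3 were below every stress library, but non-stress 2 was below non-stress 3, unlike Gfap. Among single markers, Slc6a13 and Slc22a6 had non-stress 1 above and non-stress 2 and 3 below every stress library. Dcn, Lum, Igf2, Col1a1 and Col1a2 did not. That order was shared by 3.98% of all genes tested. Counts were low, at 56 to 117 per library for Slc6a13 and 22 to 60 for Slc22a6. Dcn, the most abundant of the 7, had 4.61, 4.04 and 4.28 CPM in stress and 4.42, 2.47 and 2.40 CPM in non-stress, and none of the 7 was at 0. Of the 7 markers, 5 had a log2 fold change above 0 (0.48 for Dcn) and 2 below 0, the collagen genes Col1a2 (2.34, 2.30 and 2.56 CPM in stress and 3.29, 2.51 and 2.62 CPM in non-stress, -0.22) and Col1a1 (-0.48). The summed level of 8 oligodendrocyte markers was 6700 to 7258 CPM in stress, above non-stress 1 (6104 CPM) and below non-stress 2 (7599 CPM) and non-stress 3 (7386 CPM). 7 tested ependymal and choroid plexus markers summed to 16.6, 17.8 and 8.25 CPM in stress and 19.5, 14.4 and 14.9 CPM in non-stress. The part of these cells in the Gfap values was not tested. Vim, the other filament gene, had its highest non-stress value in non-stress 1 as well, but that was 1.103 times the lowest.

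The bases before the annotated start of Gfap are shown because this is the gene whose level varied most (RefSeq, GRCm38.p6, minus strand, chr11:102897201-102897450, 250 bases that overlap no annotated exon). They were searched on both strands for GTGGGAA, for the CCAAT box CCAAT, the TATA box TATAAA, the STAT site TTCNNNGAA, the cyclic AMP response element TGACGTCA and the glucocorticoid response element. No match was found, so no letter is in capitals. The other 5 motifs occur in 33.8%, 12.4%, 7.02%, 1.55% and 0.00913% of 32851 windows of the same length, in the order listed.
Gfap upstream: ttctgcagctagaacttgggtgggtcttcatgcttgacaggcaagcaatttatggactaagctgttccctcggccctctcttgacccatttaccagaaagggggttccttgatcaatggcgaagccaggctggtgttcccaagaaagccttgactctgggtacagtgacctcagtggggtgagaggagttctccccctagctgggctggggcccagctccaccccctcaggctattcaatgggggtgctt
Absence of these letters from this stretch says nothing of sites elsewhere at the gene.

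Taking each library against the mean of the 6, the median over the 31 genes was -0.010, -0.022 and 0.025 in stress libraries 1, 2 and 3, and -0.041, 0.031 and 0.0096 in non-stress libraries 1, 2 and 3 (log2 CPM). The stress values lay inside the range of the non-stress values. Non-stress 1 was the lowest library for the transport and metabolism genes (median -0.047) and non-stress 2 the highest (0.087), so the libraries that stood furthest apart on these genes were both non-stress. The summed level of all 31 genes was 10326 to 10833 CPM in stress and 10183 to 10649 CPM in non-stress.

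**Figure D5:**
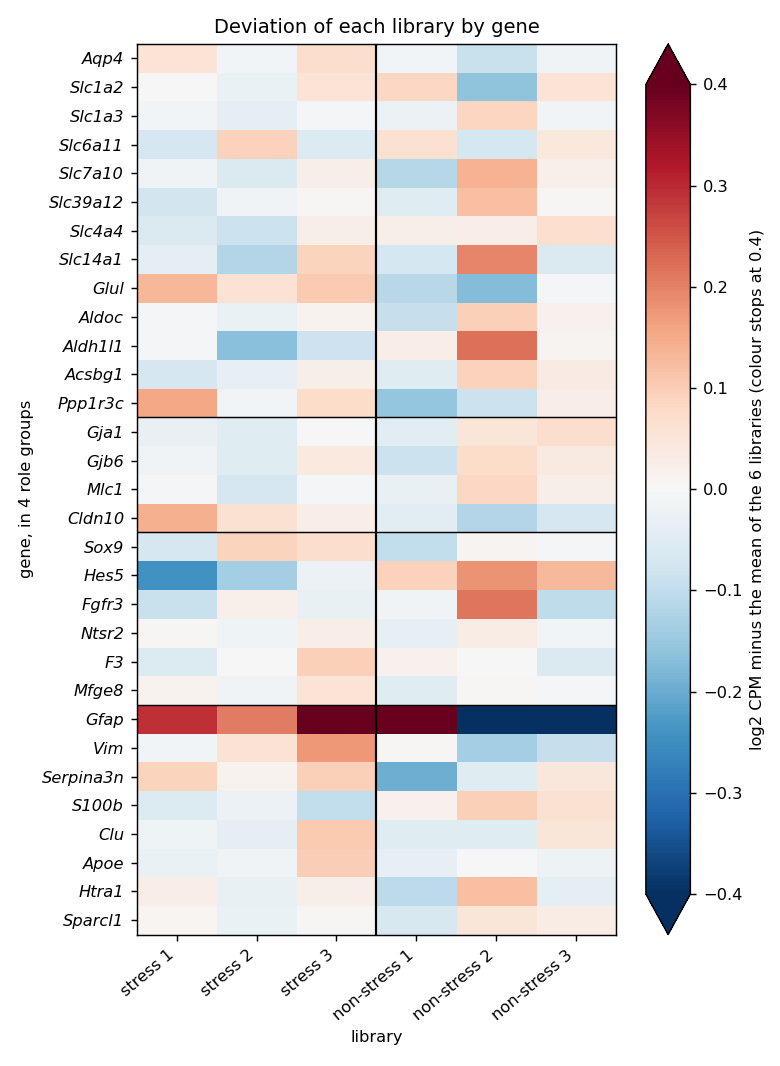
Log2 CPM of each gene in each library minus the mean of the 6 libraries, with stress on the left and genes in their 4 role groups. Most cells are pale, Hes5 is blue in stress 1 and 2, Aldh1l1 is red in non-stress 2, and Gfap exceeds the colour scale in stress 3 and in non-stress 1 to 3.

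Further lists of genes in astrocyte biology gave no call either. Of 22 other astrocyte identity genes none passed the test, 7 lay above 0 and 15 below 0, and the median log2 fold change was -0.055. At an unadjusted p under 0.05, 2 were higher and 5 lower, 31.8% of the list against 12.1% of all genes tested (5.80% higher and 6.27% lower). Among those of smallest p were Bcan, which encodes the matrix protein brevican (200, 205 and 206 CPM in stress, 218, 254 and 220 CPM in non-stress, log2 fold change -0.18), and Atp1b2, a sodium pump subunit gene (80.7, 82.0 and 79.7 CPM in stress, 99.6, 107 and 81.8 CPM in non-stress, -0.25). Each had an adjusted p of 0.351 in edgeR. The groups did not overlap in Bcan and overlapped in Atp1b2, and in both non-stress 2 was the highest library.

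Of 17 genes for lactate, glycogen and glutamine handling, none passed, with 6 above 0, 11 below 0 and a median of -0.015. At an unadjusted p under 0.05 in edgeR, 0 were higher and 1 lower, 5.88% of the list against 12.1% of all genes tested. Pcx, which encodes the anaplerotic enzyme pyruvate carboxylase, had the smallest p. It had 50.4, 52.6 and 63.8 CPM in stress and 69.7, 87.0 and 71.0 CPM in non-stress, without overlap, a log2 fold change of -0.45 (95% interval -0.69 to -0.21, adjusted p = 0.344 in edgeR). The glucose transporter gene Slc2a1 (-0.16) and the glycogen phosphorylase gene Pygb (-0.15) followed. These enzymes and transporters are also made by neurons or endothelium.

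Of 20 genes of STAT3 signalling and astrocyte regulation, none passed, with 9 above 0 and 11 below 0 and a median of -0.011. At an unadjusted p under 0.05 in edgeR, 4 were higher and 4 lower, 40% of the list, against 12.1% of all genes tested (5.80% higher and 6.27% lower). The 4 higher were Nfia, Nfib, Nfix and Zbtb20, with log2 fold changes of 0.18, 0.10, 0.088 and 0.27. The groups did not overlap in 8 genes of the list, 4 higher and 4 lower in stress (40%, against 17.9% of all genes tested). The 3 of smallest p were all lower in stress and did not overlap: Lifr, the leukemia inhibitory factor receptor gene (17.2, 16.6 and 17.5 CPM in stress, 22.2, 21.2 and 18.9 CPM in non-stress), Cntfr, a co-receptor gene of the same cytokine family (46.4, 46.3 and 47.2 CPM in stress, 48.2, 60.6 and 57.3 CPM in non-stress), and the transcriptional inhibitor gene Id3 (55.9, 57.5 and 59.0 CPM in stress, 60.5, 70.7 and 69.5 CPM in non-stress). Their log2 fold changes were -0.28, -0.25 and -0.22, with adjusted p-values of 0.344, 0.351 and 0.344 in edgeR.

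The pan-reactive and A2-type lists were sparse, and the A1-type list lay mostly below 0. Of 10 pan-reactive genes 6 had enough counts to be tested, and none passed, with 4 above 0, 2 below 0 and a median log2 fold change of 0.21. At an unadjusted p under 0.05 in edgeR, 1 was higher and 1 lower, 33.3% of the 6 against 12.1% of all genes tested. The median rests partly on low counts: Cd44 had 24 to 55 counts per library, Osmr 39 to 71 and Aspg 39 to 90. The 95% interval was -0.50 to 0.89 for Cd44 and -0.18 to 0.79 for Osmr. The classical reactive genes Lcn2, Steap4, Timp1 and Cxcl10 had 0 to 12 counts in any library and were not tested. S1pr3, a sphingosine-phosphate receptor gene, had a log2 fold change of -0.31, the small heat shock protein gene Hspb1 one of 0.27 and the oncostatin M receptor gene Osmr one of 0.31, with adjusted p-values of 0.351, 0.404 and 0.582 in edgeR. Of 12 genes of the A1 type, induced by inflammation, none passed, 9 lay below 0 and the median was -0.15. At an unadjusted p under 0.05 in edgeR, 0 were higher and 4 lower, 33.3% of the list. Of all genes tested it was 12.1% (5.80% higher and 6.27% lower). The A1 genes of smallest p, H2-D1 (-0.75, adjusted p = 0.0944 in edgeR), Psmb8 (-0.56) and Gbp2 (-0.56), serve antigen presentation and the interferon response in many cell types. Of 12 genes of the A2 type 8 were tested and none passed, with a median of 0.068. At an unadjusted p under 0.05 in edgeR, 1 was higher and 0 lower, 12.5% of the 8. Ptgs2, the inducible prostaglandin synthase gene that cortical neurons also express, had 10.8, 12.1 and 10.9 CPM in stress and 10.2, 7.57 and 9.63 CPM in non-stress (log2 fold change 0.30, adjusted p = 0.386 in edgeR), S100a10 had 0.11 and B3gnt5 0.52.

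Of 12 genes that glucocorticoids induce in astrocytes or other cells, none passed, with 6 above 0, 6 below 0 and a median of -0.026. At an unadjusted p under 0.05 in edgeR, 3 were higher and 2 lower, 41.7% of the list against 12.1% of all genes tested. The cell cycle inhibitor gene Cdkn1a had 27.6, 30.6 and 32.1 CPM in stress and 24.9, 21.3 and 21.2 CPM in non-stress, without overlap (log2 fold change 0.42, adjusted p = 0.309 in edgeR). Mt1, a metallothionein gene, had 140, 144 and 130 CPM in stress and 110, 112 and 130 CPM in non-stress, where stress 3 and non-stress 3 met (log2 fold change 0.24, adjusted p = 0.344 in edgeR). The clock gene Per1 went the other way, with a log2 fold change of -0.42 (adjusted p = 0.344 in edgeR).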

How the data were processed

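Total RNA of the anterior cingulate cortex went through a SMARTer Ultra low kit and a TruSeq library step before sequencing, per the labels' protocols. Trimmomatic 0.38, HISAT2 and StringTie were used on GRCm38 (mm10), per the submitters' processing notes; not given in the sources used here are the counting step, the annotation release and whether strand was used. The deposited table holds whole-number counts per gene, made by the authors without normalisation, 1 column per library, and these counts were used unchanged.

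edgeR's filterByExpr kept 19227 genes, which held at least 99.9% of each library's counts and included all 31 astrocyte genes. Library sizes were scaled by TMM, and the 3 stress libraries were set against the 3 non-stress libraries in edgeR's quasi-likelihood test (edgeR 4.0.16, R 4.3.3), two-sided, with p-values adjusted by Benjamini-Hochberg over all genes tested and a threshold of 0.05. Fold changes are stress over non-stress. Each SE was derived from the fitted change and the F statistic of the quasi-likelihood test, and 95% intervals from the change and that SE. The intervals therefore carry no information on precision beyond the test itself. Log2 CPM used a prior count of 2. The SD of log2 CPM was taken over 3 libraries.

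Member genes and lists were chosen with earlier results of these data known, so lists are described by counts and medians without a test of the list. Fully described genes are the 3 of smallest p in each role group, with Gfap, Vim, Serpina3n, Aqp4, Slc1a2, Slc1a3, Gja1, Gjb6 and Glul. In each further list, the 3 of smallest p are named, except 1 gene that is not reported here. Exon lengths came from GENCODE M21, which has values for all 31. Besides Hes5, Aldh1l1 and Glul, exons of opposite-strand genes overlapped those of Fgfr3 (437 bases), Slc7a10 (237 bases) and Slc1a2 (166 bases). Gene positions and sequences came from RefSeq on GRCm38.p6, and 26 of the 31 were in the promoter table.

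No pair of libraries agreed within sampling noise (chi-square per degree of freedom 4.62 or more). Other settings tried were median-of-ratios or total-count scaling, no filter on low counts, a filter of 50 counts in 3 libraries, DESeq2 1.42.0, limma-voom (limma 3.58.1), replicate number as a block and each library left out. The removal of a trend on GC content and length, fitted on 90% of genes tested, was added after seeing the data. The edgeR step was tested on simulated data. The lowest count of any of the 31 in a library was 199.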

Additional observations from a re-analysis of the deposited data

How the results depend on the processing

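Of the 31 astrocyte genes, none passed under edgeR with other size factors, other filters, the replicate block or the trend on GC content and length removed, nor under limma-voom. DESeq2 called 1 (Glul), and leaving out a library gave 0 to 1 (Gfap, without non-stress 1). Over all genes the count of calls was 1 with all libraries in edgeR, 127 with DESeq2, 2 with limma-voom, 2 with the replicate block, 3 with the trend removed and 1 to 756 with a library left out. Same-numbered libraries deviated together with correlations of 0.016, -0.030 and 0.021, so the replicate numbers are not taken to pair samples, and the block changed no call among the 31. The median log2 fold change of the 31 was -0.038 to 0.027 with a library left out.

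Signs of the smallest fold changes were not stable. With the trend removed the log2 fold change was -0.0084 for Slc1a2, 0.054 for Slc6a11, 0.015 for Slc7a10, 0.022 for Aldoc, 0.018 for Acsbg1, 0.032 for Fgfr3 and -0.0041 for F3, and the cause was not tested. With a library left out it was -0.056 to 0.060 for Slc1a2, -0.056 to 0.0033 for Slc1a3, -0.073 to 0.0079 for Slc6a11, -0.099 to 0.032 for Slc7a10, -0.10 to 0.049 for Slc14a1, -0.064 to 0.033 for Aldoc, -0.063 to 0.018 for Gjb6, -0.14 to 0.027 for Fgfr3, -0.0055 to 0.030 for Ntsr2, -0.014 to 0.061 for F3, -0.24 to 1.41 for Gfap, -0.012 to 0.065 for Clu, -0.0017 to 0.062 for Apoe, -0.038 to 0.079 for Htra1 and -0.043 to 0.015 for Sparcl1. Glul, Cldn10, Hes5, Aldh1l1 and S100b kept their direction under all of these alternatives. They were named for their small p in the same data and their groups did not overlap, so leaving out a library could hardly reverse them. Other genes were not reversed by a left-out library either, among them Aqp4 (0.054 to 0.100), Slc4a4 (-0.11 to -0.056) and Gja1 (-0.085 to -0.030).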

Other observations

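The library order of Gfap, with non-stress 1 above every stress library and every stress library above non-stress 2 and 3, was shared by 766 of 19227 genes (3.98%), and by no other of the 31 astrocyte genes. This description was set after the values were seen. With a mean of at least 10 CPM and non-stress 1 at least 2 times the next non-stress library, 13 genes remained (0.0676% of genes tested). Gfap, whose values set the order, had the largest ratio among them (4.98). Raph1, a regulator of actin, came next with 31.6, 37.8 and 60.5 CPM in stress and 122, 30.5 and 24.3 CPM in non-stress.

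Calb1 and Calb2 were among the 13. Calb1, the calcium-binding protein calbindin, which marks upper-layer and some inhibitory neurons, had 148, 145 and 159 CPM in stress and 186, 82.2 and 81.3 CPM in non-stress. Calb2, which encodes calretinin, had 20.3, 20.1 and 20.7 CPM in stress and 41.6, 17.1 and 15.5 CPM in non-stress. The kinase gene Rock1 had 40.2, 40.9 and 40.1 CPM in stress and 42.3, 14.5 and 14.8 CPM in non-stress, where non-stress 1 was close to the stress libraries. Non-stress 1 was likewise close to them in Esf1 (43.9, 43.4 and 44.4 CPM in stress, 44.9 CPM in non-stress 1), Arhgap5, C030002A05Rik and Atrx. Such genes differ from Gfap, as they were mainly low in non-stress 2 and 3.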
